A study of Homo sapiens with 6 samples.

Results

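The genes described here encode the proteins of the cytosolic ribosome. They were taken from a table of 19672 genes by symbol: names that start with RPL or RPS followed by a digit, together with RPLP0, RPLP1, RPLP2 and RPSA, without the RPS6K kinases and without hyphenated read-through names. Of 88 names that matched, 83 had at least 10 counts in at least 2 of the 6 libraries and are the members. RPL3L, with 11 counts over all libraries, and 4 names listed at 0 throughout, among them RPL10L and RPL39L, did not. Of the 83 members, 31 encode small subunit proteins and 46 large subunit proteins. The remaining 6 are not canonical subunit genes: RPL7L1, RPL22L1, RPL26L1, RPL36AL and RPS27L are paralogues of subunit genes, and RPS19BP1, matched by its name alone, encodes a binding partner of RPS19. All 83 members passed the low-count filter of the test, as 13299 genes of the table did.

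Ribosomal protein genes are transcribed at high levels in growing cells, and their mRNAs mostly begin with a cytosine and a run of pyrimidines, the terminal oligopyrimidine tract, through which mTOR signalling controls their translation. Their proteins are assembled on ribosomal RNA in the nucleolus, and surplus proteins are degraded. The knocked-down gene, DKC1, encodes dyskerin, which converts uridines of ribosomal RNA to pseudouridine as part of the H/ACA ribonucleoproteins. The guide RNAs of these particles are small nucleolar RNAs, many of which are cut from introns of ribosomal protein genes.

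RNA came from SW620, a human cell line established from a colorectal cancer, which held lentiviral short-hairpin constructs and was kept under 1 µg/mL puromycin in every group. Control cells held a scrambled hairpin, and the knockdown lines C3 and C6 held hairpins against DKC1; each of the 3 groups has 2 libraries, named as biological replicates. Both knockdown lines are stable lines, and whether either is a single clone, and which of the named hairpins each carries, the sources used here do not say. For 1 library the genotype tag says control while the title names C3, and it was placed in C3. Nothing says that the libraries of a group came from separate cultures, so p-values measure the spread between these libraries, which may be technical.

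The start sites show the feature by which these mRNAs are known. In the RefSeq annotation of GRCh38.p14, 67 members had a promoter sequence, and 43 of them (64.2%) had at the annotated start a run that opens with C followed by at least 4 pyrimidines, read on the gene's strand. The same was true of 706 of 15154 promoters of protein-coding genes in the table (4.66%). Such a run lay within 10 bases of the start in 85.1% of the members' promoters and 34.1% of all. The windows below run from 15 bases before the annotated start to 14 after it, with the run in capitals. They are shown for the small subunit genes with the largest rise in C6, for the stalk proteins and for RPL22L1, with the run, and RPL26L1, without it. These are paralogues of RPL22 and RPL26, which both had the run at the annotated start.
RPS21 (chr20:62387088-62387117, plus strand): ggtgactagctgCTTCCTTTCTCTCTCgcg
RPS23 (chr5:82278340-82278369, minus strand): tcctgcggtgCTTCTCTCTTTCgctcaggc
RPLP1 (chr15:69452803-69452832, plus strand): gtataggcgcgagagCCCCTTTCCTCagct
RPLP2 (chr11:809952-809981, plus strand): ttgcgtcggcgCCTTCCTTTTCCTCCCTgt
RPL22L1 (chr3:170870181-170870210, minus strand): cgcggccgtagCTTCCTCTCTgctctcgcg
RPL26L1 (chr5:172958714-172958743, plus strand): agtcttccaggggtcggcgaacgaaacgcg
The start used for RPL26L1 lies inside the annotated span of the gene (chr5:172954094-172969771) and not at its edge, where the sequence was not examined. The match is a description of the letters in these windows and not of how the mRNAs were translated, which was not measured.

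Libraries held between 26077966 and 31021000 counts, and 3 counts in a library corresponded to between 0.0967 and 0.115 CPM (counts scaled to a common library size by TMM), a floor that covers counting error only. DKC1 (chrX:154762864-154777689) stood at 319.7 and 315 CPM in the scramble libraries, 144 and 149 CPM in C3, and 70.3 and 67.1 CPM in C6. The knockdown libraries of both lines lay below both scramble libraries, with log2 fold changes of −1.11 ± 0.059 (SE) in C3 and −2.21 ± 0.062 in C6. The adjusted p-values were 4.29e-09 and 3.46e-12 (edgeR quasi-likelihood test, Benjamini-Hochberg, as for all adjusted p-values here). All 7 epithelial markers exceeded 1 CPM in every library, with a summed level of 8489 to 9135 CPM in scramble, 6887 to 7082 in C3 and 8952 to 9058 in C6. KRT8 is the largest part of this sum, which hides changes in both directions. On the log2 scale CDH1 stood at −1.96 in C3 and −0.30 in C6, VIL1 at 0.34 and −1.08, and KRT19 at −0.27 and 0.76. EPCAM stood at −0.38 and −0.50, KRT8 at −0.37 and −0.089, KRT18 at −0.30 and −0.010, and CDX2 at −0.21 and 0.68. The leukocyte markers PTPRC and CD3E and the fibroblast markers COL1A2 and DCN were at 0 in all libraries. CD68, the other leukocyte marker, had 16.8 and 15.2 CPM in the scramble libraries, 10.5 and 10.8 CPM in C3, and 33.04 and 39.98 CPM in C6. The remaining fibroblast marker COL1A1 and the endothelial markers PECAM1 and VWF summed to 6.3 CPM at most per cell type.

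As a family, the ribosomal protein genes took overlapping shares of the sequenced mRNA in the 3 groups. They held 10.2% and 9.37% of all counts in the scramble libraries, 9.07% and 9.63% of those in C3, and 10.2% and 9.58% of those in C6. The group means were 9.80% ± 0.604 in scramble, 9.35% ± 0.400 in C3 and 9.87% ± 0.417 in C6 (SD, n = 2). Knockdown libraries stood 0.186 percentage points below scramble (exact two-sided permutation test, p = 0.8; the smallest p that 2 against 4 libraries allow is 0.133). Because counts are scaled to the library, a change in total RNA per cell is not visible here, and in bulk RNA fewer cells of a kind and less RNA per cell cannot be told apart.

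Replicates differed in this family as a block. All 83 members were higher in scramble 1 than in scramble 2, with a median log2 difference of 0.14. In C3, 81 of 83 were higher in replicate 2 than in replicate 1 (median 0.097), and in C6, 77 of 83 were higher in replicate 1 than in replicate 2 (median 0.092). Over all genes tested the same comparisons split nearly evenly, with 51.3%, 50.6% and 49.6% of genes higher. Members also differed from one another in how far they moved between replicates. With each library's family total held fixed, which removes a shift of the whole family, their counts still exceeded sampling noise. Chi-square values per degree of freedom were 12.6 in scramble, 9.72 in C3 and 23.7 in C6. Over all genes they were 7.39, 5.97 and 8.07. These values grow with the counts of the genes, which are high in this family, so the sets are not directly comparable. The median member lay furthest above its own mean in C6 1 (0.10) and furthest below it in scramble 2 (−0.097) and C3 1 (−0.089). Small family-wide differences between the groups are thus of the size of the differences between libraries of a group.

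**Figure D1:**
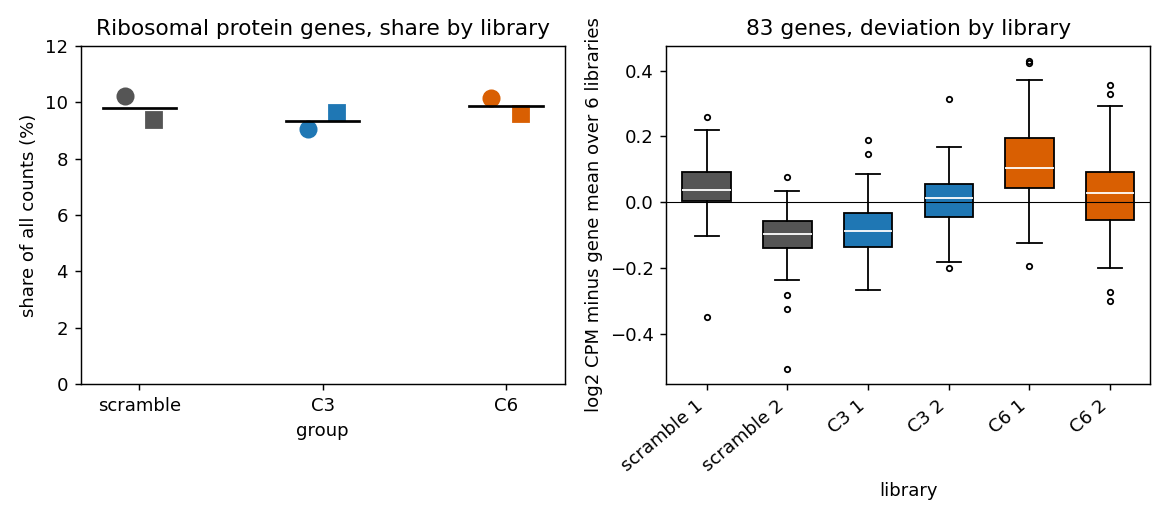
Left, the share of all counts (%) that fell on the 83 ribosomal protein genes in each library, with circles for replicate 1, squares for replicate 2 and bars for group means; right, boxes of the 83 genes' log2 CPM minus each gene's mean over the 6 libraries (box, quartiles; white line, median; whiskers, up to 1.5 box lengths; circles, genes beyond). Shares lie between 9.07% and 10.2% and the groups overlap, and the libraries of a group are offset from each other on the right.

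The balance of small and large subunit genes differed little between libraries. Counts on small subunit genes divided by those on large subunit genes gave ratios of 0.648 and 0.641 in the scramble libraries, 0.647 and 0.652 in those of C3, and 0.677 and 0.664 in those of C6. Both C6 libraries lay above the other 4.

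The first comparison set C3, the line with the higher residual DKC1 level, against scramble. Few genes changed: 3 of 83 members were called higher and 3 lower (adjusted p under 0.05), 3.61% each, where 12.4% of all genes tested were called higher and 11.9% lower. The median log2 fold change of the members was −0.022, against 0.0013 over all genes, and none passed 1.5-fold. The members called higher were RPS21, RPS26 and RPL26L1, and those called lower were RPS6, RPL3 and RPL10A.

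RPS21 (chr20:62387103-62388520), a small subunit protein needed for the maturation of 18S ribosomal RNA, stood at 342 and 306 CPM in the scramble libraries, 432 and 459.9 CPM in C3, and 585 and 557 CPM in C6. The scramble, C3 and C6 libraries formed 3 separate ranges in that order. It rose by 0.46 ± 0.065 on the log2 scale in C3 (adjusted p = 9.97e-05), by 0.82 ± 0.066 in C6 (adjusted p = 1.11e-07), and it was the only member past 1.5-fold in C6. RPS26 (chr12:56041918-56044697), a small subunit protein that contacts mRNA upstream of the start codon, stood at 148 and 134 CPM in the scramble libraries, 163 and 172 CPM in C3, and 174 and 160.0 CPM in C6. All 4 knockdown libraries lay above both scramble libraries, with nearly equal log2 fold changes, 0.25 ± 0.068 in C3 and 0.24 ± 0.069 in C6 (adjusted p = 0.0142 and 0.00854). Both calls of RPS26 were lost without scramble replicate 2, that in C3 also without C3 replicate 2 and that in C6 without C6 replicate 1. RPS21 and RPS26 were the members called with the same sign in both lines, comparisons that share their scramble libraries, and no member was called with opposite signs (0 of 83).

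RPS6 (chr9:19375715-19380236), the substrate of the S6 kinases, was called lower in C3. It stood at 2544 and 2335 CPM in the scramble libraries, 2027 and 2174 CPM in C3, and 2681 and 2466 CPM in C6, so that both C3 libraries lay below and the C6 libraries within and above the scramble range (−0.22 ± 0.066 in C3, adjusted p = 0.0252, and 0.077 ± 0.066, not called, in C6). RPL3 (chr22:39312882-39319623), which lies close to the peptidyl transferase centre, stood at 2699 and 2472 CPM in the scramble libraries, 2135 and 2330.3 CPM in C3, and 2485 and 2478 CPM in C6 (−0.21 ± 0.063 in C3, adjusted p = 0.0234). RPL10A (chr6:35468401-35470780), a protein of the L1 stalk, stood at 910.0 and 841 CPM in the scramble libraries, 744 and 799 CPM in C3, and 900.4 and 855 CPM in C6 (−0.18 ± 0.063 in C3, adjusted p = 0.0467). C3 libraries lay below both scramble libraries in each of these genes. The calls of RPS6, RPL3 and RPL10A were lost without scramble replicate 1 and without C3 replicate 1, which left 0 of 83 called lower in C3 by edgeR, and 0 at an unadjusted p under 0.05 as well. RPL10A lost its call in 9 of 15 alternatives. Without scramble replicate 2 or C3 replicate 2, 1 member was called higher.

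In C6, whose DKC1 level was lower, more members were called, most of them higher. Of 83 members 25 were called higher (30.1%) and 6 lower (7.23%), where 23.8% of all genes tested were called higher and 22.8% lower. The median log2 fold change was 0.11, against −0.010 over all genes. The share called higher was near the background, and the share called lower was below it. The changes were small: the log2 fold changes of the 77 subunit genes had an SD of 0.18 across genes, against 0.90 over all genes tested. In 36 of 83 members both C6 libraries lay above both scramble libraries, and in 8 of 83 both lay below. Of all genes tested 36.1% lay above and 36.8% below in this way. The members' share was thus somewhat higher than the background for libraries above and lower for libraries below.

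Small subunit genes gave 11 higher and 1 lower of 31 (median 0.12) and large subunit genes 12 higher and 5 lower of 46 (median 0.093). Of the 6 others, RPS19BP1 and RPL36AL were higher. The counts depended on single libraries, those that stand apart in the family as a whole: 8 members were called higher and 8 lower without scramble replicate 2, 9 and 4 without C6 replicate 1, and 33 and 1 without scramble replicate 1. Without C6 replicate 2 there were 23 higher and 1 lower, and without either C3 replicate 23 higher and 3 lower. With upper-quartile scaling, which moved the median of all genes in C6 to −0.071, the calls were 12 higher and 9 lower.

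**Figure D2:**
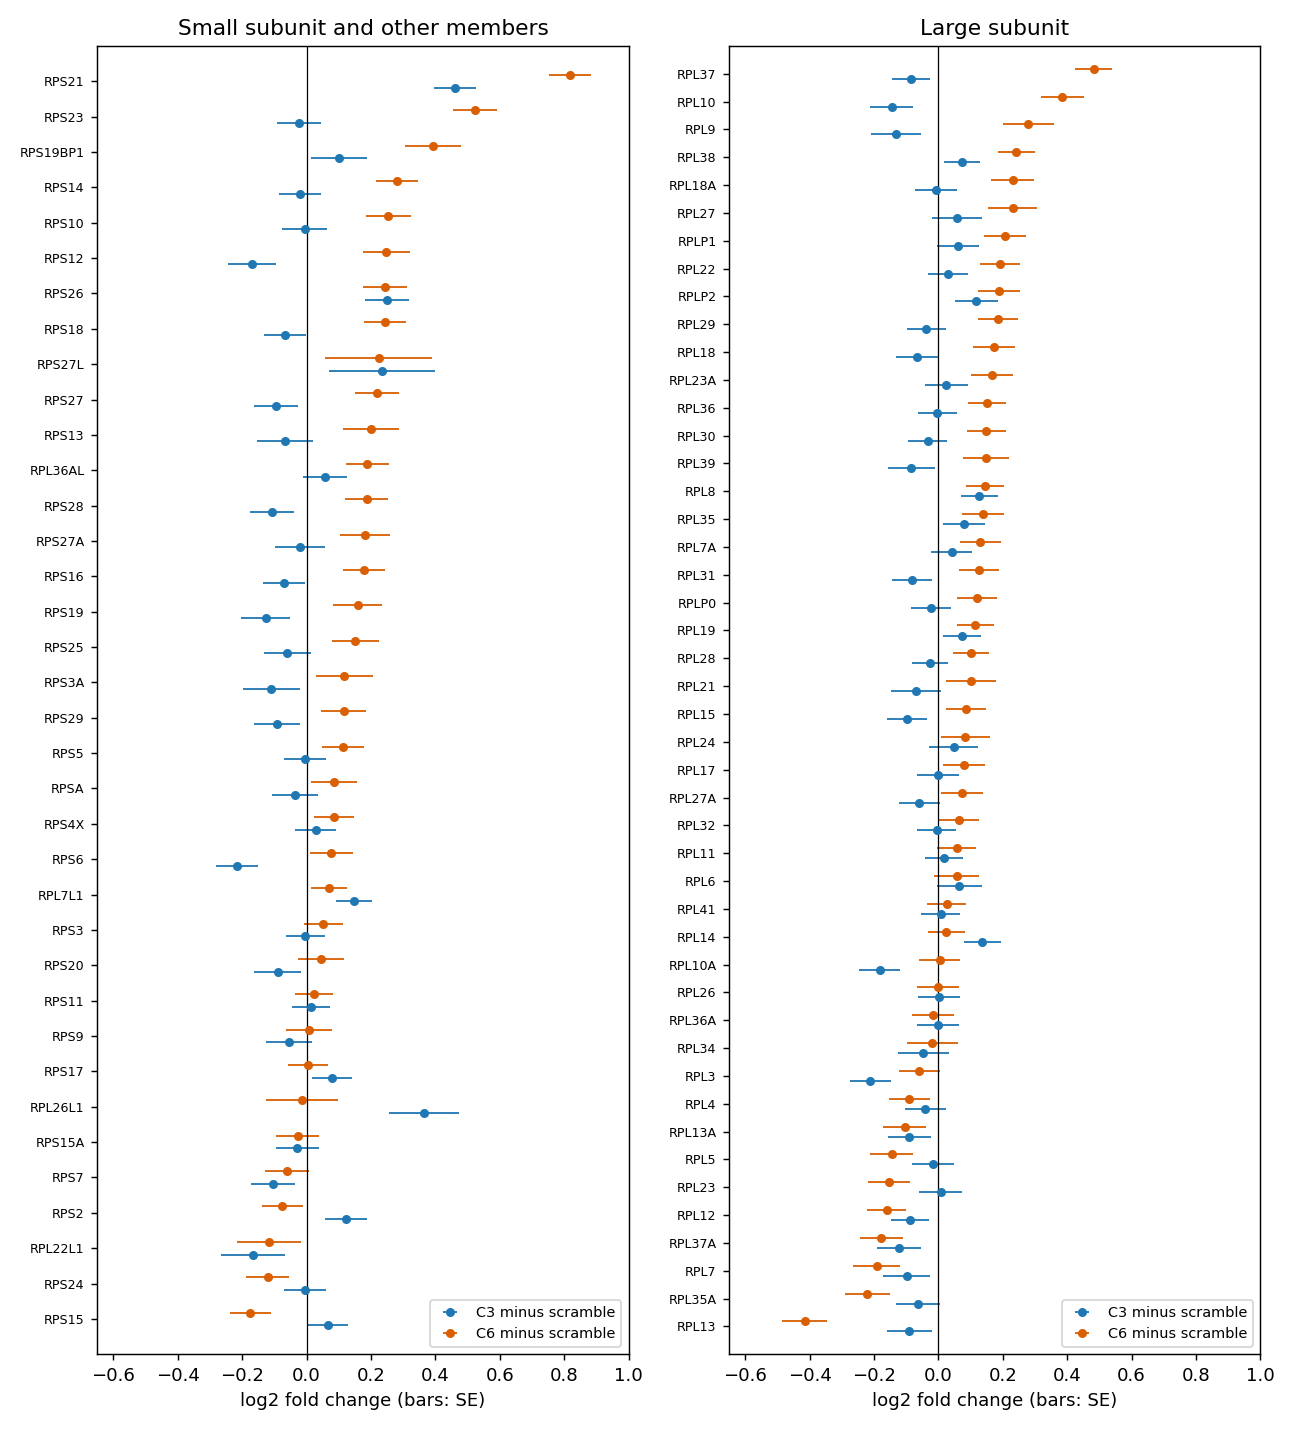
Log2 fold change against scramble of 82 of the 83 genes in C3 (blue) and C6 (orange), with bars for the standard error of the fit; left, small subunit genes and the 6 other members, right, large subunit genes, ordered by the change in C6. C3 values lie close to 0 apart from RPS21, RPL26L1 and RPS26 on the higher side, and C6 values run from −0.42 for RPL13 to 0.82 for RPS21.

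After RPS21 the largest rises of subunit genes in C6 were those of RPS23, RPL37 and RPL10. RPS23 (chr5:82273320-82278354), a protein of the decoding centre, stood at 1165 and 1064 CPM in the scramble libraries, 1051 and 1144 CPM in C3, and 1675 and 1529.9 CPM in C6. Both C6 libraries exceeded the other 4, which overlapped (0.52 ± 0.068, adjusted p = 1.72e-05). RPL37 (chr5:40825262-40835222), a large subunit protein, stood at 992 and 933 CPM in the scramble libraries, 897 and 918 CPM in C3, and 1363 and 1326 CPM in C6, with C6 again above the other 4 libraries and C3 just below scramble (0.48 ± 0.058, adjusted p = 7.23e-06). RPL10 (chrX:154398065-154402339) encodes a protein that joins the large subunit late, in the cytoplasm, and hosts an H/ACA RNA. It stood at 2580.1 and 2279 CPM in the scramble libraries, 2133 and 2260.2 CPM in C3, and 3243 and 3101 CPM in C6. C6 lay above all other libraries, and C3 lay below both scramble libraries without being called (0.38 ± 0.066 in C6, adjusted p = 0.00023).

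RPS19BP1 (chr22:39529093-39532748) stood at 75.9 and 64.6 CPM in the scramble libraries, 70.1 and 80.7 CPM in C3, and 93.9 and 90.5 CPM in C6 and was also higher in C6, with both C6 libraries above the other 4 (0.39 ± 0.087, adjusted p = 0.00189). RPS12 (chr6:132814569-132817564) and RPL9 (chr4:39454124-39458922), a small and a large subunit protein, were higher in C6 and lay below the scramble mean in C3 without being called. RPS12 stood at 1055 and 923 CPM in the scramble libraries, 836 and 923 CPM in C3, and 1219 and 1129.7 CPM in C6 (0.25 ± 0.073 in C6, adjusted p = 0.0122). For RPL9 the levels were 907 and 790.2 CPM in the scramble libraries, 741 and 809 CPM in C3, and 1095 and 965 CPM in C6 (0.28 ± 0.079 in C6, adjusted p = 0.0102). In both genes the C6 libraries lay above the scramble range. Their C6 calls were lost without scramble replicate 2 and without C6 replicate 1, that of RPS12 also with upper-quartile scaling.

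RPL13 had the largest fall of the family. This gene (chr16:89560657-89566829), which encodes a large subunit protein and hosts a C/D snoRNA, stood at 1591 and 1401 CPM in the scramble libraries, 1363 and 1449 CPM in C3, and 1164 and 1080.4 CPM in C6. Both C6 libraries lay below the other 4, and the C3 libraries overlapped with scramble (−0.42 ± 0.069 in C6, adjusted p = 0.00017; −0.090 ± 0.069 in C3, not called). RPL35A (chr3:197950190-197956610), a large subunit protein mutated in Diamond-Blackfan anaemia, stood at 768 and 680.3 CPM in the scramble libraries, 672 and 715 CPM in C3, and 648 and 595 CPM in C6 (−0.22 ± 0.069, adjusted p = 0.0163). The C6 libraries lay below both scramble libraries in this gene as well.

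The other members called lower in C6 were RPL7, RPL37A, RPS15 and RPL12. RPL7 (chr8:73290242-73294466), a large subunit protein, stood at 1682 and 1517 CPM in the scramble libraries, 1418 and 1571 CPM in C3, and 1474 and 1328 CPM in C6 (−0.19 ± 0.073). The levels of RPL37A (chr2:216498844-216504086), a zinc finger protein of the large subunit, were 1179 and 1065 CPM in the scramble libraries, 995 and 1066 CPM in C3, and 1035 and 949.6 CPM in C6 (−0.18 ± 0.067). RPS15 (chr19:1438396-1440495), a small subunit protein needed for nuclear export of the pre-40S particle, had 679 and 603 CPM in the scramble libraries, 659.6 and 683 CPM in C3, and 573 and 563 CPM in C6 (−0.17 ± 0.064). In each of these 3 genes both C6 libraries lay below both scramble libraries. RPL12 (chr9:127447674-127451406), at the base of the P stalk, had 1652 and 1544 CPM in the scramble libraries, 1480.3 and 1529 CPM in C3, and 1467 and 1393 CPM in C6 (−0.16 ± 0.060, adjusted p = 0.0371), with both knockdown lines below both scramble libraries. Of the 6 members called lower, RPL13 alone kept its call without scramble replicate 1 and without C6 replicate 2.

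**Figure D3:**
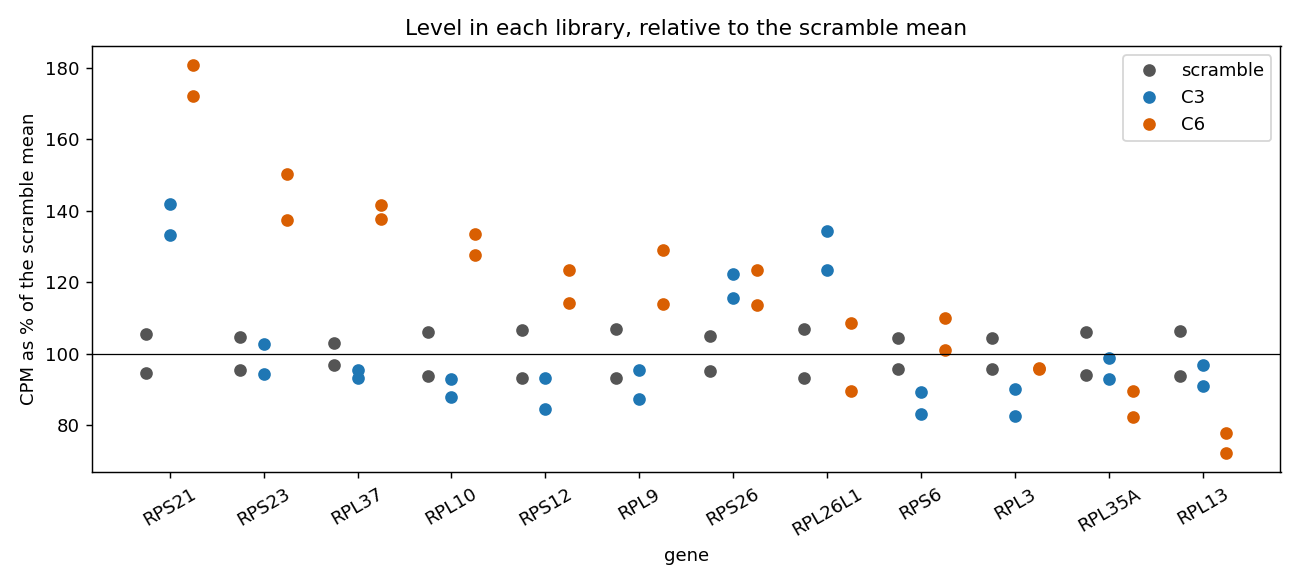
CPM of 12 ribosomal protein genes in each library as a percentage of the gene's scramble mean (line at 100%), with scramble in grey, C3 in blue and C6 in orange and 1 point for each library. RPS21 and RPS26 lie above scramble in all 4 knockdown libraries, RPS23, RPL37 and RPL10 lie above it in the C6 libraries and not in the C3 libraries, and RPL13 lies lowest in C6.

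The direct comparison of the lines does not use the scramble libraries. C6 exceeded C3 in 31 members (37.3%) and lay below it in 4 (4.82%), where 25.1% of all genes tested were higher and 24.1% lower. The median difference was 0.13 on the log2 scale, against 0.0018 over all genes. It was 0.21 in small subunit genes, with 16 higher and 2 lower of 31, and 0.085 in large subunit genes, with 14 higher and 1 lower of 46. RPL37 (0.57 ± 0.058), RPS23 (0.55 ± 0.068), RPL10 (0.53 ± 0.066), RPS12 (0.42 ± 0.073), RPL9 (0.41 ± 0.079) and RPS21 (0.36 ± 0.065) had the largest differences. RPL26L1 (−0.38 ± 0.11), RPL13 (−0.33 ± 0.069), RPS15 (−0.24 ± 0.064) and RPS2 (−0.20 ± 0.064) were lower in C6. RPS2 (chr16:1962058-1964826), a protein at the mRNA entry site, stood at 4053 and 3719 CPM in the scramble libraries, 4051 and 4408 CPM in C3, and 3771 and 3606 CPM in C6, so that C3 and C6 did not overlap each other and both overlapped scramble. Without C3 replicate 1 there were 13 members higher in C6, and without C6 replicate 1 there were 14. Without C3 replicate 2 there was 1 member lower, and without C6 replicate 2 there were 2.

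In the mean of both lines against scramble, 7 members were called higher and 1, RPL13, lower, where 16.6% of all genes tested were called higher and 16.3% lower. The members' shares were 8.43% and 1.2%, both under the background, and their median was 0.042. RPS21 (0.64 ± 0.058), RPS23 (0.25 ± 0.059), RPS26 (0.25 ± 0.060), RPS19BP1 (0.25 ± 0.076) and RPL37 (0.20 ± 0.050) were among them, and RPL13 stood at −0.25 ± 0.059. Under upper-quartile scaling the calls were 4 higher and 6 lower with a median of −0.0063. When the 4 knockdown libraries were taken as 1 group, so that the difference between the lines counts as spread, edgeR called 0 of 83 members, and 2 were higher and 0 lower at an unadjusted p under 0.05. That grouping was not run with another tool. Leaving out a library gave between 1 and 12 members higher and between 0 and 3 lower, with 1 higher without scramble replicate 2 and 12 without scramble replicate 1.

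Because the family shifted as a block between replicates, the members were also compared with one another, with the family total as the library size, a setting chosen after seeing the data. Relative to the family, 4 members were higher in C3 (RPS21, RPL26L1, RPS26 and RPS2) and 2 lower (RPS6 and RPL3). In C6 12 were higher and 13 lower, and between C6 and C3 13 were higher and 15 lower. RPS21 then stood at 0.74 in C6 and RPL13 at −0.49. The predominance of higher calls in C6 was thus not present on this scale, on which the total of the family is equal in all libraries by construction.

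Several of the largest changes lay where neighbouring genes had shifted too. For each member the median log2 fold change of the 50 nearest tested genes, 25 on each side along the chromosome, was taken, and a neighbourhood was called shifted beyond 0.2 in either direction, a value chosen after seeing the data. In C6 10 of 83 members (12%) lay in shifted neighbourhoods, as 17.6% of all genes with a position did. Of these 10, 9 were called in the direction of their neighbours and 0 against it, and of all genes in shifted neighbourhoods 57.8% were called in that direction. Those in higher neighbourhoods were RPS21 (neighbours 0.55), RPL37 (0.34), RPL10 (0.33) and RPS23 (0.31), the 4 subunit genes with the largest rises. Those in lower ones were RPL13 (−0.64), RPL37A (−0.48), RPL35A (−0.40), RPS15 (−0.26) and RPL7 (−0.20), so that 5 of the 6 members called lower lay there. RPS4X (neighbours −0.24, own change 0.085) was the tenth and was not called.

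Among the other 73 members 21 were higher (28.8%) and 1, RPL12, lower (1.37%), with a median of 0.12. Of 10920 genes outside shifted neighbourhoods 21.3% were higher and 21.5% lower, with a median of −0.015. RPS19BP1 (−0.014), RPL9 (−0.10) and RPS12 (−0.13) thus rose in neighbourhoods that had not risen. DKC1 itself lies near RPL10, and its neighbours stood at 0.30 in C6. In C3 the neighbours of RPS21 stood at 0.45 and those of RPS3A at −0.20, and no other member lay beyond 0.2. Across members, Pearson's r between a member's change and that of its neighbours was 0.34 in C3 and 0.66 in C6 (83 genes, which share the same libraries), against 0.099 and 0.21 over all genes with a position. When the neighbours' median was entered as an offset, RPS21 stood at 0.0078 in C3, not called, and at 0.27 in C6. The offset ended the C6 calls of RPL10 (0.055, adjusted p = 0.531) and RPL37 (0.14, adjusted p = 0.0556), and RPS23 kept its call at 0.21. On that scale RPL13 turned to 0.23 and RPL37A to 0.31, both called higher than their neighbours in C6. Copy number was not measured, and its part in these values was not tested.

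**Figure D4:**
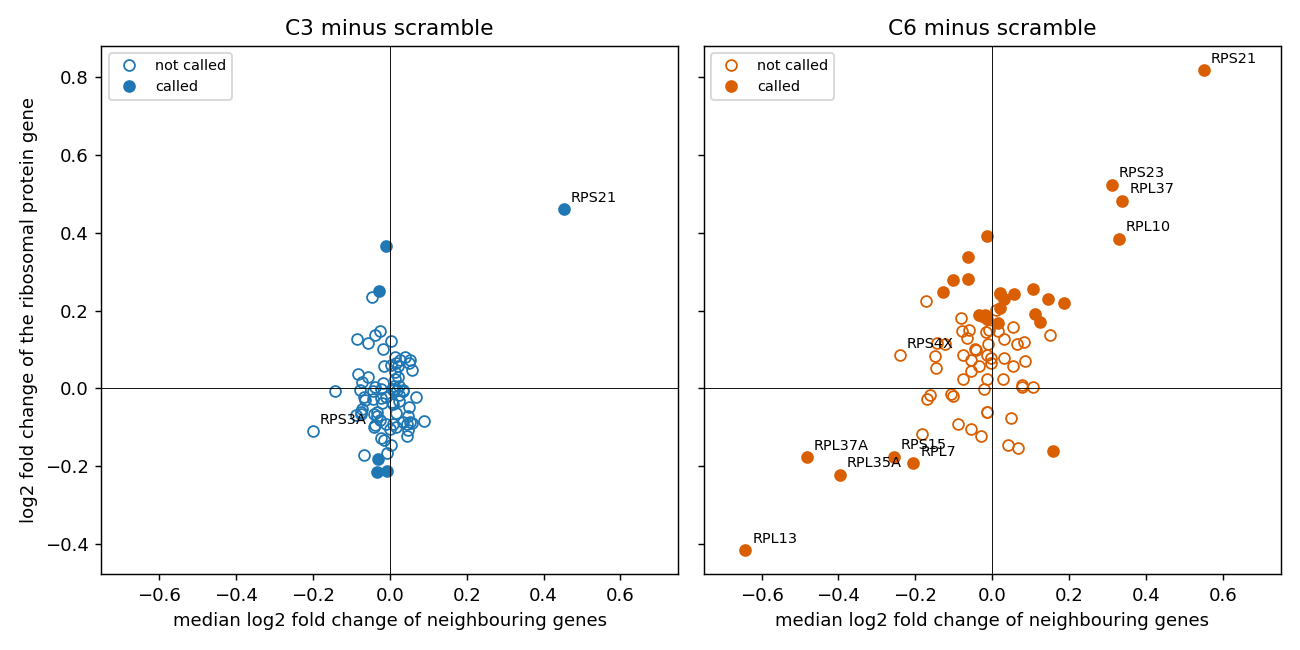
Log2 fold change of each of the 83 genes (vertical) against the median log2 fold change of its 50 nearest tested genes (horizontal), in C3 (left) and C6 (right), with filled points for genes called and names for genes whose neighbours lie beyond 0.2. In C6 the named genes other than RPS4X lie in the direction of their neighbours, from RPL13 at the lower left to RPS21 at the upper right, and most filled points lie above 0 near a neighbour median of 0.

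The P stalk recruits the translation factors with GTPase activity to the ribosome. RPLP0, its anchor, had 3353 and 3069 CPM in the scramble libraries, 3048 and 3269.8 CPM in C3, and 3522 and 3453 CPM in C6 and was called in neither line (−0.024 ± 0.062 in C3 and 0.12 ± 0.062 in C6). RPLP1, which forms dimers with RPLP2 on the stalk, had 1269.7 and 1146 CPM in the scramble libraries, 1207 and 1313 CPM in C3, and 1422 and 1368 CPM in C6 and was called higher in C6 (0.21 ± 0.065, adjusted p = 0.0168). The levels of RPLP2 were 884 and 802 CPM in the scramble libraries, 866 and 963 CPM in C3, and 960.0 and 961 CPM in C6 (0.19 ± 0.067 in C6, adjusted p = 0.0299). With RPL12 lower, the stalk and its base thus had 2 members higher and 1 lower of 4 in C6 (23.8% and 22.8% of all genes). The call of RPLP1 was lost in 4, that of RPLP2 in 6 and that of RPL12 in 6 of 15 alternatives. All 3 calls were lost without C6 replicate 1, and those of RPLP1 and RPLP2 also without scramble replicate 2 and with upper-quartile scaling. In C3 edgeR and DESeq2 called 0 of 4, and 0 passed an unadjusted p of 0.05. The C6 libraries of RPLP0, RPLP1 and RPLP2 lay above both scramble libraries.

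RPL5 and RPL11 bind 5S ribosomal RNA and, when not in ribosomes, the ubiquitin ligase MDM2. RPL5 had 1856 and 1669 CPM in the scramble libraries, 1689 and 1794 CPM in C3, and 1656 and 1531 CPM in C6, and neither line was called (−0.017 ± 0.066 in C3 and −0.15 ± 0.067 in C6). RPL11 had 996 and 949 CPM in the scramble libraries, 966 and 1002 CPM in C3, and 1047 and 975 CPM in C6, with overlapping groups (0.017 ± 0.060 and 0.057 ± 0.060). MDM2 itself was higher in C3 (0.28) and stood at 0.0045, not called, in C6.

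Of the 5 paralogues tested, RPL26L1 was called in C3. It encodes a protein close to RPL26 in sequence, and it had 26.5 and 23.1 CPM in the scramble libraries, 30.6 and 33.3 CPM in C3, and 27.0 and 22.2 CPM in C6. Both C3 libraries lay above the other 4 (0.37 ± 0.11, adjusted p = 0.0229), and its CPM as a percentage of that of RPL26 was 1.33 and 1.27 in the scramble libraries, 1.67 and 1.68 in those of C3, and 1.37 and 1.21 in those of C6. The call of RPL26L1 in C3 was lost with DESeq2 and without scramble replicate 2 or C3 replicate 2, with adjusted p of 0.208 at most. RPL36AL, a retained copy of RPL36A, had 89.5 and 85.8 CPM in the scramble libraries, 87.6 and 94.6 CPM in C3, and 102 and 98.0 CPM in C6 and was called higher in C6 (0.19 ± 0.068, adjusted p = 0.0318). That call of RPL36AL was lost in 8 of 15 alternatives, among them DESeq2, upper-quartile scaling and leaving out any 1 scramble or C6 library.

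RPL22L1, which can take the place of RPL22 in the ribosome, was called in neither line. It had 47.6 and 39.9 CPM in the scramble libraries, 37.5 and 40.5 CPM in C3, and 43.1 and 37.5 CPM in C6. As a percentage of RPL22 it lay below the scramble range in all knockdown libraries. The percentages were 6.34 and 5.85 in the scramble libraries, 5.21 and 5.44 in those of C3, and 5.09 and 4.76 in those of C6. The ratio was not tested, and RPL22 itself was called higher in C6 (0.19, adjusted p = 0.022). RPL7L1, a nucleolar relative of RPL7, had 329.8 and 319 CPM in the scramble libraries, 362 and 356 CPM in C3, and 339 and 342 CPM in C6 (0.15 ± 0.055 and 0.071 ± 0.055). RPS27L, a relative of RPS27, had 13.931 and 10.985 CPM in the scramble libraries, 15.204 and 14.088 CPM in C3, and 17.166 and 11.972 CPM in C6, and its standard errors were the widest of the paralogues (0.23 ± 0.17 and 0.22 ± 0.17). Neither RPL7L1 nor RPS27L was called.

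Small nucleolar RNAs lie within the annotated span of 28 members, on the same strand. Exons and introns were not told apart. Of 14 members with an H/ACA RNA in their span, 4 were called higher and 1 lower in C6 (median 0.093). Of 17 with a C/D RNA the counts were 4 and 1 (median 0.078), and of 55 with neither 18 and 4 (median 0.12). Over all genes tested 23.8% were called higher and 22.8% lower in C6. Both kinds are held by 3 members, which count in both classes. In C3 the counts were 0 and 0, 0 and 1, and 3 and 2 (12.4% and 11.9% of all genes). At an unadjusted p under 0.05 the H/ACA hosts had 0 higher and 2 lower in C3 and the C/D hosts 0 and 2, and DESeq2 called 0 and 0, and 0 and 1. No test of the difference between these classes was made. The RNAs themselves are not polyadenylated mRNAs, and their levels are not read from these libraries.

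The 62 subunit genes with a promoter sequence were split by the pyrimidine run at the annotated start, and the rest were left out. A run lay within 10 bases of the start in 55 of the 62. Genes without the run at the start thus include some with one nearby. Of 42 with the run at the start, 14 were higher and 3 lower in C6 (median 0.13). Of 20 without it there, 5 were higher and 2 lower (median 0.082). Of all genes 23.8% were higher and 22.8% lower in C6. In C3 the medians were −0.037 and −0.031. Among 21 genes mutated in Diamond-Blackfan anaemia, an inherited failure of red cell production, 7 were higher and 1 lower in C6 (23.8% and 22.8% of all genes) and 1 was higher and 0 lower in C3 (12.4% and 11.9% of all genes). Those in C6 included RPS26 and RPL35A, given above.

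The name rule misses some proteins of the ribosome. FAU, whose product is cleaved to RPS30, had 354 and 304 CPM in the scramble libraries, 348 and 362 CPM in C3, and 461 and 429.9 CPM in C6 and was higher in C6 (0.44, adjusted p = 0.000166). RACK1, a scaffold on the small subunit, had 1702 and 1574 CPM in the scramble libraries, 1614 and 1688 CPM in C3, and 1903 and 1857 CPM in C6 (0.20, adjusted p = 0.0129). Both C6 libraries lay above both scramble libraries in FAU and in RACK1, and neither gene was called in C3 (0.11 and 0.011).

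Other mRNAs known for a terminal oligopyrimidine tract were called in both directions in C6. Of 20, 4 were higher and 4 lower in C6 (23.8% and 22.8% of all genes) and 0 and 2 in C3 (12.4% and 11.9% of all genes), with medians of −0.040 and −0.048. BTF3 of the nascent chain complex was higher in C6 (0.56, neighbours 0.37), and the elongation factor EEF2 (−0.31) and the initiation factor EIF4B (−0.28) were lower. EEF1A1 and TPT1 were lower in C3 (−0.21 and −0.23).

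Among 17 readers and regulators of these mRNAs, 7 were higher and 0 lower in C3 (12.4% and 11.9% of all genes), and 5 higher and 5 lower in C6 (23.8% and 22.8% of all genes). RHEB, the GTPase that activates mTORC1, rose in both lines (0.43 in C3 and 1.14 in C6), in a neighbourhood that stood at 0.47 in C3, above its own change there, and at 0.55 in C6. The S6 kinase RPS6KB2 (0.31 and 0.56) and the translation repressors EIF4EBP1 (0.27 and 0.45) and EIF4EBP2 (0.23 and 0.28) were higher in both as well. The neighbours of EIF4EBP1 stood at 0.37 in C6. CNBP, which binds such mRNAs, was also higher in both (0.20 and 0.17). The genes lower in C6 were the kinase MTOR (−0.30), its partner RPTOR (−0.38), the cap-binding protein EIF4E (−0.29), LARP4 (−0.19) and the La protein SSB (−0.51, neighbours −0.54), which was higher in C3 (0.25). LARP1, the reader of the tract, was called in neither (0.15 and −0.027).

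Dedicated chaperones carry single ribosomal proteins to the assembling subunits. Of 8 chaperones, 3 were higher and 0 lower in C3 (12.4% and 11.9% of all genes) and 0 higher and 3 lower in C6 (23.8% and 22.8% of all genes). TSR2, which escorts RPS26, was higher in C3 (0.24) and not called in C6 (0.11). GRWD1, the chaperone of RPL3, was higher in C3 (0.26) and lower in C6 (−0.23). BCCIP, which serves RPL23, was higher in C3 (0.27). HEATR3 (−0.44), which imports RPL5, and AAMP (−0.35), whose yeast relative serves RPL10, were lower in C6, where the neighbours of AAMP stood at −0.43.

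Ribosomal protein genes have many processed copies in the genome, which limits how exactly their reads are assigned. In the GENCODE 29 annotation 76 of the 77 subunit genes had pseudogene copies under their symbol, 1133 in all, with a median of 10 and a maximum of 91 for RPL23A, and 39 overlapped another gene. RPS21 had 3 such copies, RPS23 10, RPL10 19, RPL37 11, RPS26 30 and RPL13 5. The sources used here do not say how reads were shared between a gene and its copies, and the values of RPS26 in particular are uncertain for that reason. Read-through rows showed uneven assignment: RPL17-C18orf32 held 143, 0, 0, 151, 183 and 0 counts in the 6 libraries.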

How the data were processed

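Poly(A) RNA of 6 SW620 libraries was sequenced as paired ends with a stranded kit, per the labels' protocols. The deposited table gives a whole-number read count per gene and library, unscaled, per the file headers. The authors used Trimmomatic 0.38, HISAT2 2.1.0, StringTie 2.1.3b and DESeq2 on hg38, according to the submitters' processing notes. The sources used here give neither their order nor how reads were assigned to genes, so the counts may be sums of transcript estimates.

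Quasi-likelihood tests were run with edgeR 4.0.16 (robust fit, TMM scaling, filterByExpr with a minimum count of 10) in R 4.3.3 on 13299 genes of all 6 libraries in 3 groups, with 3 residual degrees of freedom. Benjamini-Hochberg adjustment covered all genes tested, and genes with an adjusted p under 0.05 are called. CPM are counts scaled to a common library size by TMM, and errors are SE of the fit or SD of 2 libraries. Counts of members are read against the share of all genes called. Positions and start windows come from RefSeq on GRCh38.p14, snoRNA hosts and pseudogene copies from GENCODE 29.

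Library values are given for DKC1, for members called with the same or opposite signs in C3 and C6, for the 6 largest rises and falls called in each comparison, for paralogues, stalk and 5S proteins, and for ribosomal proteins outside the name rule. From other lists up to 6 genes were named by their p in the mean comparison, with some genes of small p passed over. Further genes of those lists were named for their role or their calls after their values were seen. Of the genes the rule or lists name, 3 are not reported here; counts over members and lists include them. The members, lists and rule were chosen with earlier results of these data known. Same-numbered libraries showed weak correlations of their deviations over all genes (−0.16, 0.15 and −0.095 between groups), and no label says that the numbers pair them. The numbers were therefore not taken to pair libraries, though these correlations cannot exclude it. The fit of the mean comparison was tested on simulated counts, with genes drawn independently and the same change in both lines. That simulation held no shift of a family between replicates, so it does not address the block shifts seen here. Alternatives were RLE and upper-quartile scaling, TMM without these genes, other filters, DESeq2 1.42.0, a replicate block, leaving out each library and, chosen after seeing the data, the family total as library size and the knockdown libraries as 1 group; the neighbours' change as an offset was also tried.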

Additional observations from a re-analysis of the deposited data

Results flagged for a closer look

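The change against scramble differed between C6 and C3 in 13 of the named genes, by the direct test of the lines with edgeR's quasi-likelihood test and Benjamini-Hochberg adjustment. Most of them were named because they had the largest called differences in this same test, so their number follows from that choice. Of all genes tested, 25.1% were called higher and 24.1% lower in C6 than in C3. On the log2 scale C6 exceeded C3 by 0.57 in RPL37 (adjusted p = 1.08e-06), 0.55 in RPS23 (9.16e-06), 0.53 in RPL10 (9.3e-06) and 0.42 in RPS12 (0.000268). The difference was 0.41 in RPL9 (0.000707), 0.36 in RPS21 (0.000316), 0.29 in RPS6 (0.00171), 0.29 in RPS19BP1 (0.0118) and 0.19 in RPL10A (0.0232). C6 lay below C3 in RPS2 (−0.20, adjusted p = 0.0188), RPS15 (−0.24, 0.00534), RPL13 (−0.33, 0.00114) and RPL26L1 (−0.38, 0.00939). RPS21 was called higher in both lines against scramble, RPL13 was called lower in C6 alone, and RPS6 and RPL10A were called lower in C3 alone. The neighbours of RPL37, RPS23, RPL10, RPS21, RPS15 and RPL13 shifted in C6 as given above, and their part in the differences was not tested beyond the offset values.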

How the results depend on the processing

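Of 47 calls of named genes, all 47 were kept with RLE scaling, with TMM without these genes, without the low-count filter and with a filter of 1 CPM in 2 libraries. DESeq2 kept 45, upper-quartile scaling 40, the replicate block 40, the family total 39 and the neighbour offset 29, and leaving out a library kept between 33 and 39. With the neighbour offset 8 reversed: RPL13 in C6 (0.23), in the mean (0.040) and in C6 against C3 (0.38), RPL35A (0.18), RPL37A (0.31) and RPL7 (0.013) in C6, and RPS15 in C6 (0.082) and in C6 against C3 (0.066). In C3 the offset gave 5 members higher and 1 lower, and in C6 30 higher and 3 lower. Upper-quartile scaling gave 12 higher in C6, and in the mean 4 higher and 6 lower. In the mean 2 were lower without the filter and with 1 CPM, 4 with DESeq2, and 0 higher and 0 lower with the knockdown libraries as 1 group. Relative to the family total 12 were higher and 13 lower in C6, 7 lower in the mean, and 13 higher and 15 lower in C6 against C3. Leaving out a library gave 1 to 3 higher and 0 to 5 lower in C3, 8 to 33 and 1 to 8 in C6, 1 to 12 and 0 to 3 in the mean, and 13 to 34 and 1 to 4 in C6 against C3. The share of counts became 10.4% in scramble, 9.99% in C3 and 10.6% in C6 without mitochondrially encoded genes, and 11.7%, 11.1% and 11.8% without the 50 highest other genes, where the smaller denominator raises all 3. The cause of the other changes was not tested. With the replicate number as a block 19 members were higher and 2 lower in C6, against 25 and 6. Same-numbered libraries correlated by −0.16, 0.15 and −0.095 in their deviations. Such weak correlations cannot exclude a shared culture or preparation round, so whether the numbers pair libraries is not known. With 2 libraries a group, SEs near 0.066 on the log2 scale limit what can be called to changes of about the size of the replicate offsets.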
